A study of Homo sapiens with 22 samples.

Results

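The difference between 2 human neuroblastoma cell lines in their response to a 30-day drug combination was measured gene by gene, as the change in GIMEN minus the change in SK-N-AS on the log2 scale. Its members were the 12980 genes that passed an expression filter within each line, of 16246 genes tested over both lines and 35237 in the deposited count table. A further 3266 tested genes were not members, of which 2311 passed the filter in SK-N-AS alone, 537 in GIMEN alone and 418 in neither line alone. RNA sequencing covered 14 libraries: 4 of untreated SK-N-AS, 4 of SK-N-AS at day 30 of the second stage (S2D30), 3 of untreated GIMEN and 3 of GIMEN at day 30 (D30). Both lines are established, unmodified lines that the labels class as mesenchymal. Untreated SK-N-AS cells grew in DMEM with 10% serum. The S2D30 cells had first been given 5 µM PP121 for 4 days in 1% serum and then 5 µM PP121 with 100 nM bufalin for 30 days in Neurobasal medium with B27 supplement. Untreated GIMEN cells grew in RPMI with 10% serum, and D30 cells were given 2.5 µM PP121 with 10 nM bufalin for 30 days in RPMI with 1% serum. The 2 lines thus differed in dose, medium, serum and staging of the treatment, and the part of the line and the part of the protocol in any difference below cannot be told apart. Untreated cells kept for 30 days in the treatment media were not analysed here.

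Neuroblastoma arises from the sympathoadrenal lineage of the neural crest, and its cells can hold an adrenergic state, close to committed neuroblasts, or a mesenchymal state, close to neural crest cells and fibroblasts. PP121 inhibits receptor and non-receptor tyrosine kinases together with PI3K and mTOR, the kinases that couple growth factor signals to growth. Bufalin, a cardiac glycoside from toad venom, blocks the sodium pump. Cells that leave the cycle commonly switch off replication and mitosis genes.

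Library totals ran from 16456484 to 37506800 counts. Correlations between libraries of a group lay between 0.9767 and 0.992, with the lowest among the untreated SK-N-AS libraries. The labels number the replicates without saying whether they came from separate cultures, so p-values measure the spread between these samples, which may be technical. Levels are given in counts scaled to library size (CPM), set over the 14 libraries and not per length, so that levels are compared within a gene and not between genes. A change or difference was called at an adjusted p under 0.05 in edgeR's quasi-likelihood test. All 8 mesenchymal markers exceeded 1 CPM in each group. Their summed level was 784.4 to 1438 CPM in SK-N-AS before treatment and 3118 to 3739 after it, and 7384 to 7645 CPM in GIMEN before treatment and 3807 to 4948 after it. VIM, the filament protein vimentin, carried most of the GIMEN sum, with means of 5882 and 2829 CPM, while CD44, a hyaluronan receptor, went from 697 to 1040. Of 7 adrenergic markers, 6 exceeded 1 CPM in both SK-N-AS groups and 3 in both GIMEN groups. Their sum was 1439 to 1672 CPM in SK-N-AS before treatment and 168.3 to 208.3 after it, and 410.1 to 434.9 CPM in GIMEN before treatment and 228.1 to 267.8 after it. HAND2, a transcription factor, carried most of the GIMEN sum, with means of 364.8 and 174.6 CPM, while GATA3 went from 60.52 to 66.96 and ISL1 from 1.241 to 1.408.

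Most markers of other cell types were low, with exceptions among the leukocyte list in both lines. The 9 Schwann and glial markers summed to at most 8.84 CPM in any library and the 8 endothelial markers to at most 39.23 CPM, most of it PECAM1 in D30, at a mean of 26.84 CPM. Among 12 leukocyte markers, PTPRC, which encodes the phosphatase CD45 and is named after its values were seen, stood at 173, 171, 158 and 199 CPM in untreated SK-N-AS and at 0.501, 0.773, 1.28 and 0.663 in S2D30. GIMEN held 0.879, 0.64 and 1.43 CPM of PTPRC untreated and 0.285, 0.68 and 0.315 at D30. The T-cell marker CD3E and the myeloid markers TYROBP and SPI1 were below 1 CPM on average in each group. CORO1A, an actin-binding protein of that list, averaged 15.51 CPM in untreated SK-N-AS and 18.98 in untreated GIMEN, against 0.5231 and 0.4391 after treatment. CSF1R, the receptor of the macrophage growth factor, averaged 11.74 CPM in untreated GIMEN and 5.01 at D30, and at most 1.598 in SK-N-AS. The part of these markers in the results was not tested. CD68, a lysosomal protein, made up most of the leukocyte sum elsewhere, and its changes appear with the lysosome below.

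A called difference was found for 7222 members, or 55.6% of the 12980, against 49.7% of all genes tested. The GIMEN change lay above the SK-N-AS change for 3605 members (27.8%) and below it for 3617 (27.9%). In the same model, 4563 members (35.2%) rose and 5236 (40.3%) fell in SK-N-AS, while 3941 (30.4%) rose and 4262 (32.8%) fell in GIMEN. With each line fitted alone, 4683 members rose and 4736 fell in SK-N-AS, and 4628 rose and 4691 fell in GIMEN. The gap between the lines in these counts thus depended on the shared model. A called difference was thus common, and counts within gene lists are read below against the 55.6% of all members. The difference was at least 1 log2 unit for 3389 of the called members and at least 4 for 271.

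The 2 responses shared much of their direction. Across the 12980 members, the changes of the 2 lines correlated with a Pearson r of 0.5586 and a Spearman rho of 0.4842, as a description across genes, which are not independent replicates. The sign was the same for 68.37% of members. A change in the same direction was called in both lines for 5251 members, 2363 up and 2888 down, and for 2831 of these no difference between the lines was called. The median absolute change was 0.64 log2 units in SK-N-AS and 0.53 in GIMEN, and the median difference was 0.00054. The central range of the difference, from the 5th to the 95th percentile, ran from -1.95 to 1.97.

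**Figure D1:**
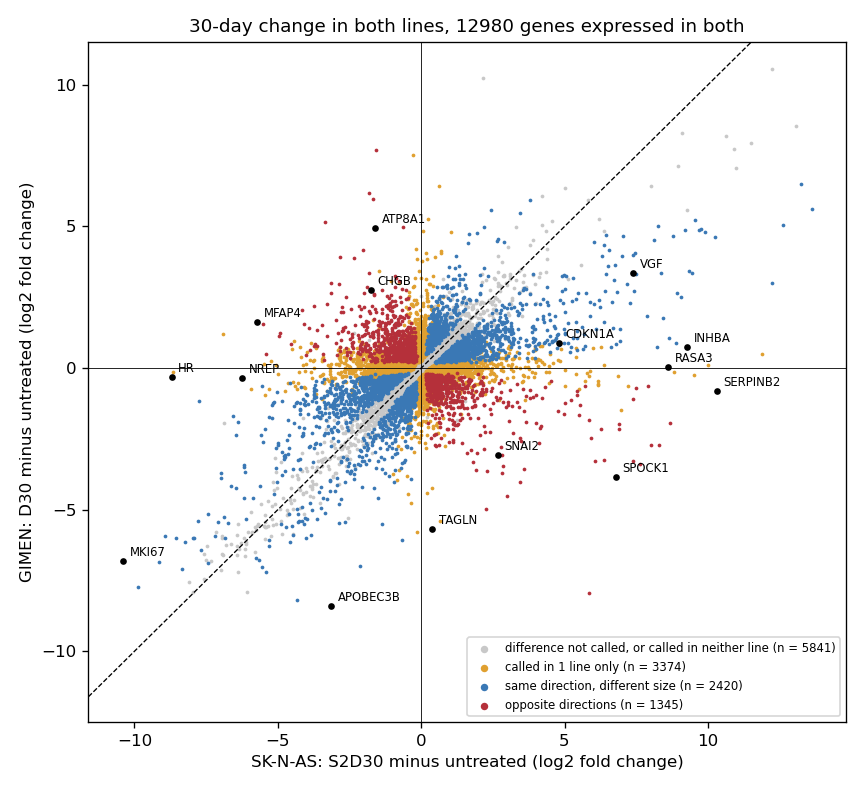
Log2 fold change after 30 days in SK-N-AS (horizontal axis) and in GIMEN (vertical axis) for the 12980 genes expressed in both lines, 1 point per gene, coloured by how the called difference arose. Points on the dashed line changed equally in both lines. The 1345 genes in red moved in opposite directions, and SERPINB2 and SPOCK1 lie farthest to the right below the zero line among the labelled genes.

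How a called difference arose varied among the 7222 members. In 1345 the lines moved in opposite directions, 608 up in SK-N-AS and down in GIMEN and 737 the other way. In a second set both lines moved the same way by different amounts: 797 rose more in SK-N-AS, 347 rose more in GIMEN, 735 fell more in SK-N-AS and 541 fell more in GIMEN. The change was called in SK-N-AS alone for 2202 members, 1067 up and 1135 down, and in GIMEN alone for 1172, 610 up and 562 down. These totals come from the shared model and were not counted with each line fitted alone. The remaining 83 had a called difference with neither line's change called. Where both lines moved the same way, the larger change was in SK-N-AS for 1532 members and in GIMEN for 888.

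**Figure D2:**
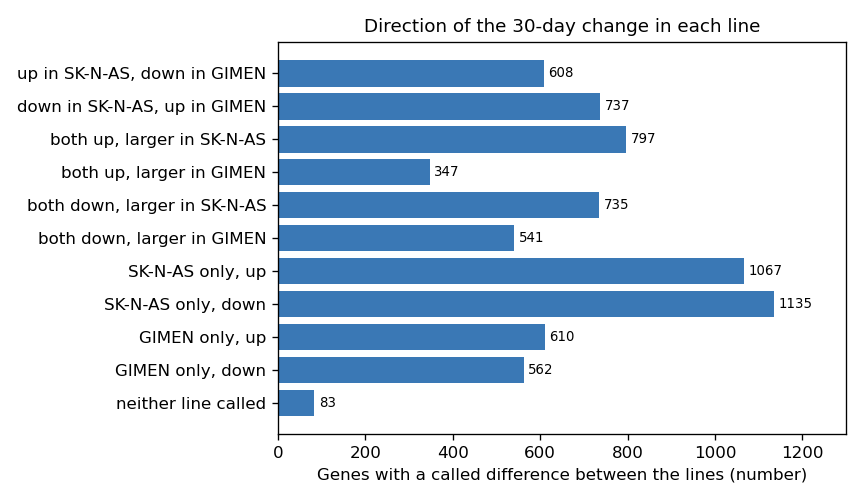
Number of genes with a called difference between the lines (horizontal axis) in each of 11 classes by direction of the called change in SK-N-AS and GIMEN. The largest classes are those called in SK-N-AS alone, with 1135 genes down and 1067 up.

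The leading genes that rose in SK-N-AS and fell in GIMEN began at very low levels in SK-N-AS. SERPINB2, an inhibitor of plasminogen activators, stood at 0.43, 0.517, 0.287 and 0.765 CPM in untreated SK-N-AS and at 679, 746, 669 and 563 in S2D30. SERPINB2 in GIMEN stood at 22.9, 22.8 and 24.2 CPM untreated and at 10.8, 14.6 and 14.9 at D30. All S2D30 libraries were thus far above all others, and the D30 libraries lay below the untreated GIMEN ones. SK-N-AS changed by 10.31 and GIMEN by -0.79 on the log2 scale, a difference of -11.11 ± 0.24 (SE, adjusted p = 1.50e-14).

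SPOCK1, a matrix proteoglycan, began low in SK-N-AS, at 0.43, 0.43, 0.335 and 0.324 CPM, and reached 45.6, 44.9, 37.4 and 42.7 in S2D30. SPOCK1 began high in GIMEN, at 773, 759 and 759 CPM, and reached 74.9, 44.1 and 39.8 at D30. The 2 lines therefore ended at overlapping levels, with a difference in change of -10.63 ± 0.30 (adjusted p = 1.92e-13). MYEOV, a gene named for its overexpression in myeloma, rose from 0.101, 0.0861, 0 and 0.0588 CPM to 14.4, 9.57, 10.1 and 14.5 in SK-N-AS. In GIMEN MYEOV fell from 18.9, 19.6 and 19.2 CPM to 10.2, 8.9 and 8.19, a difference of -8.46 ± 0.36 (adjusted p = 2.21e-11). The untreated SK-N-AS levels of MYEOV were near the detection floor. Under the alternatives described at the end, its difference ran from -9.24 to -8. Its levels at 30 days, like those of SPOCK1, were closer between the lines than before treatment.

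MFAP4, a microfibril-associated matrix glycoprotein, moved the other way. It stood at 169.7, 150.4, 231 and 193 CPM in untreated SK-N-AS and at 4.13, 3.33, 2.98 and 3.48 in S2D30, against 45.9, 43.7 and 46.6 in untreated GIMEN and 109, 156 and 151 at D30. SK-N-AS was the higher line before treatment and GIMEN at 30 days, and the difference was 7.35 ± 0.23 (adjusted p = 5.80e-13). ATP8A1, which flips phospholipids to the inner leaflet of membranes, fell from 20.3, 22.5, 24.2 and 41.7 to 10.0, 8.41, 7.78 and 9.74 CPM in SK-N-AS and rose from 0.62, 0.443 and 0.8 to 17.4, 16.4 and 24.0 in GIMEN, a difference of 6.56 ± 0.39 (adjusted p = 1.00e-09). RP11-572P18.1, a transcript known by its clone name, stood at 133, 119.9, 122 and 79.0 CPM in untreated SK-N-AS, 43.6, 42.1, 26.5 and 29.1 after treatment, and in GIMEN at 1.19, 0 and 0 untreated and 12.2, 18.0 and 46.8 at D30. Its difference of 7.66 (adjusted p = 5.19e-07) rested on 1 library for its size: without untreated GIMEN replicate 1, the only one of that group with counts, it was 13.9.

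Among genes that rose in both lines, those with a larger rise in SK-N-AS included secreted signals. INHBA, the subunit of activin A, rose from 0.582, 1.08, 0.718 and 0.971 CPM to 421, 668, 604 and 346 in SK-N-AS and from 100.3, 102 and 106 to 227, 138 and 147 in GIMEN. The log2 changes were 9.27 and 0.73, a difference of -8.54 ± 0.36 (adjusted p = 2.08e-11). LIF, a cytokine of the interleukin-6 family, rose from 5.37, 6.67, 2.92 and 3.35 to 1634, 2269, 2192 and 1339.9 CPM in SK-N-AS and from 114, 129 and 116 to 317, 237 and 203 in GIMEN. Each S2D30 library exceeded each D30 library for LIF, although the untreated GIMEN level had been above that of untreated SK-N-AS, and the difference was -7.59 ± 0.35 (adjusted p = 5.58e-11). IL1RAPL1, a synaptic adhesion protein of the interleukin-1 receptor family, rose from 0.0506, 0, 0.0479 and 0.118 to 33.0, 30.6, 25.2 and 32.8 CPM in SK-N-AS. In GIMEN it rose from 10.8, 10.8 and 11.4 to 23.4, 18.7 and 19.4 CPM, a difference of -7.97 ± 0.32 (adjusted p = 8.93e-12). Its untreated SK-N-AS levels were near the detection floor, and the difference ran from -8.77 to -7.39 under the alternatives described at the end.

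The rises that were larger in GIMEN were smaller in size. SEMA6A, a membrane-bound semaphorin of axon guidance, went from 18.2, 20.6, 18.7 and 23.5 to 119, 96.6, 87.5 and 139.6 CPM in SK-N-AS and from 0.31, 0.296 and 0.628 to 14.9, 20.7 and 22.6 in GIMEN, so that its level at 30 days stayed lower in GIMEN while its change was larger by 3.11 ± 0.38 (adjusted p = 3.63e-06). ABHD6, a hydrolase of monoacylglycerols, rose by 0.56 in SK-N-AS and by 2.86 in GIMEN, a difference of 2.30 ± 0.21, from 3.26, 2.41 and 2.91 to 24.1, 20.3 and 17.8 CPM in the latter. BTN2A2, a butyrophilin of the cell surface, rose by 0.61 and 2.46, a difference of 1.85 ± 0.17, and reached 54.5, 58.6 and 56.4 CPM at D30 against 11.9, 12.1, 14.2 and 11.3 in S2D30.

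Among genes that fell in both lines, NREP, a protein named for neuronal regeneration, was nearly lost in SK-N-AS, from 295, 253, 357 and 334 to 3.92, 4.88, 3.95 and 3.48 CPM. NREP in GIMEN went from 157, 158 and 157 to 115, 131 and 125 CPM, a change of -0.35 (adjusted p = 0.0171), and the difference was 5.91 ± 0.17 (adjusted p = 3.16e-13). FN1, which encodes fibronectin, fell from 50.6, 49.2, 54.3 and 84.6 to 2.25, 1.35, 1.57 and 1.99 CPM in SK-N-AS and from 32063, 30377 and 32539 to 18013, 18315 and 16359 in GIMEN. Fibronectin RNA thus fell proportionally more in the line that held far less of it, a difference of 4.19 ± 0.28 (adjusted p = 4.18e-09). SCARA3, a scavenger receptor, fell by 6.40 on the log2 scale to 0.0835, 0.242, 0.213 and 0.124 CPM in SK-N-AS and by 1.89 to 280.4, 229.5 and 178 CPM in GIMEN, a difference of 4.51 ± 0.39.

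Larger falls in GIMEN were led by APOBEC3B, a DNA cytidine deaminase. It went from 18.4, 15.4, 12.2 and 9.74 to 1.46, 1.98, 1.79 and 1.12 CPM in SK-N-AS and from 34.2, 35.5 and 39.1 to 0.057, 0.185 and 0.063 in GIMEN, where each D30 library had at most 3 counts. The difference was -5.27 ± 0.52 (adjusted p = 3.83e-07), or -4.50 with the D30 level set at 3 counts per library, and reads of its near-identical paralogs may be split between genes. TMEM97, the sigma-2 receptor that binds the cholesterol transporter NPC1, went from 36.2, 28.4, 27.2 and 26.1 to 9.56, 10.9, 11.4 and 9.86 CPM in SK-N-AS and from 46.4, 42.6 and 45.1 to 1.82, 2.04 and 1.64 in GIMEN, a difference of -3.10 ± 0.19. PDE3A, a cyclic nucleotide phosphodiesterase, went from 25.6, 26.0, 29.3 and 57.5 to 16.8, 21.4, 19.0 and 14.4 CPM and from 33.7, 32.5 and 32.1 to 1.88, 2.29 and 1.83, a difference of -3.07 ± 0.38. For these 3 genes the untreated levels of the lines were within the same order of magnitude, and the D30 libraries were the lowest of all.

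Some genes rose in SK-N-AS towards or beyond a level at which no change was called in GIMEN. RASA3, a GTPase-activating protein for RAS and RAP, stood at 0.101, 0.301, 0.0957 and 0.177 CPM in untreated SK-N-AS and at 69.1, 65.6, 61.2 and 64.8 in S2D30, against 92.1, 93.8 and 98.2 in untreated GIMEN and 101, 97.0 and 91.2 at D30. SK-N-AS changed by 8.60, against 0.03 for GIMEN (adjusted p = 0.851), a difference of -8.58 ± 0.19 (adjusted p = 1.50e-14). COL4A6, a basement membrane collagen chain, went from 0.456, 1.12, 0.287 and 1.0 to 44.5, 43.1, 37.9 and 46.8 CPM in SK-N-AS beside 171, 163 and 158 and 156, 140.5 and 164 in GIMEN, a difference of -5.99 ± 0.25. BHLHE40, a transcriptional repressor of clock and hypoxia responses, went from 6.51, 7.32, 3.78 and 3.77 to 292, 327, 331 and 290.2 CPM in SK-N-AS and overshot the GIMEN levels of 46.1, 48.5 and 45.2 untreated and 44.4, 35.9 and 36.0 at D30, with a difference of -6.12 ± 0.25.

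Others fell in SK-N-AS while no change was called in GIMEN. HR, a nuclear corepressor, went from 78.4, 72.9, 80.3 and 84.7 to 0.376, 0.0966, 0 and 0.249 CPM in SK-N-AS, beside 15.1, 13.6 and 14.3 and 8.66, 14 and 12.4 in GIMEN, a difference of 8.40 ± 0.36 (adjusted p = 2.08e-11). MAB21L2, a developmental gene, fell from 517, 424, 546 and 458 to 13.6, 18.0, 14.8 and 11.4 CPM in SK-N-AS beside 358, 364 and 377 and 414, 461 and 323, a difference of 5.20 ± 0.21. PLK2, a stress-responsive polo-like kinase, fell from 106, 85.3, 74.1 and 66.6 to 6.18, 7.1, 6.21 and 5.35 CPM beside 109, 109.9 and 111 and 112, 112 and 109, a difference of 3.75 ± 0.18. The treated and untreated GIMEN libraries overlapped for all 3 genes. The S2D30 levels of HR were near the detection floor, and its difference ran from 7.99 to 9.03 under the alternatives described at the end.

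Genes whose change was called in GIMEN alone began lower or higher there than in SK-N-AS. ABCA3, a lipid transporter, rose from 2.12, 1.82 and 1.49 to 16.1, 19.2 and 14.6 CPM in GIMEN beside 51.7, 48.7, 67.1 and 70.0 and 61.1, 62.0, 54.6 and 58.7 in SK-N-AS, a difference of 3.20 ± 0.22 (adjusted p = 6.20e-09). BMPR1B, a receptor for bone morphogenetic proteins, rose from 2.38, 3.79 and 3.14 to 31, 17.5 and 20.0 CPM in GIMEN and differed by 3.18 ± 0.26. KSR1, a scaffold of the RAF and MEK kinases, rose from 1.91, 2.41 and 1.88 to 11.7, 10.0 and 12.7 CPM and differed by 2.26 ± 0.20. All 3 moved towards the SK-N-AS level.

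In the other direction, IGF2, the insulin-like growth factor, fell in GIMEN from 553, 567 and 559 to 88.0, 128 and 90.1 CPM while SK-N-AS libraries held 3664, 4641, 3341 and 3891 CPM untreated and 4137, 3639.7, 3167 and 4178 in S2D30. The difference was -2.42 ± 0.21 (adjusted p = 8.05e-08), and no change was called in SK-N-AS (adjusted p = 0.805). ROR1, a receptor tyrosine kinase bound by WNT5A, fell from 47.4, 44.3 and 46.7 to 10.1, 8.71 and 8.25 CPM in GIMEN beside 12.1, 12.0, 11.1 and 19.4 and 17.4, 13.6, 17.1 and 14.4 in SK-N-AS, a difference of -2.54 ± 0.24. RBM3, a cold-inducible RNA-binding protein, fell from 281, 289 and 293 to 58.7, 51.7 and 58.9 CPM in GIMEN and differed by -2.36 ± 0.21. In SK-N-AS it held 158, 154, 97.6 and 96.1 CPM untreated and 134, 125, 127 and 123 in S2D30. The S2D30 libraries thus lay between untreated replicates 1 and 2 and untreated replicates 3 and 4.

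**Figure D3:**
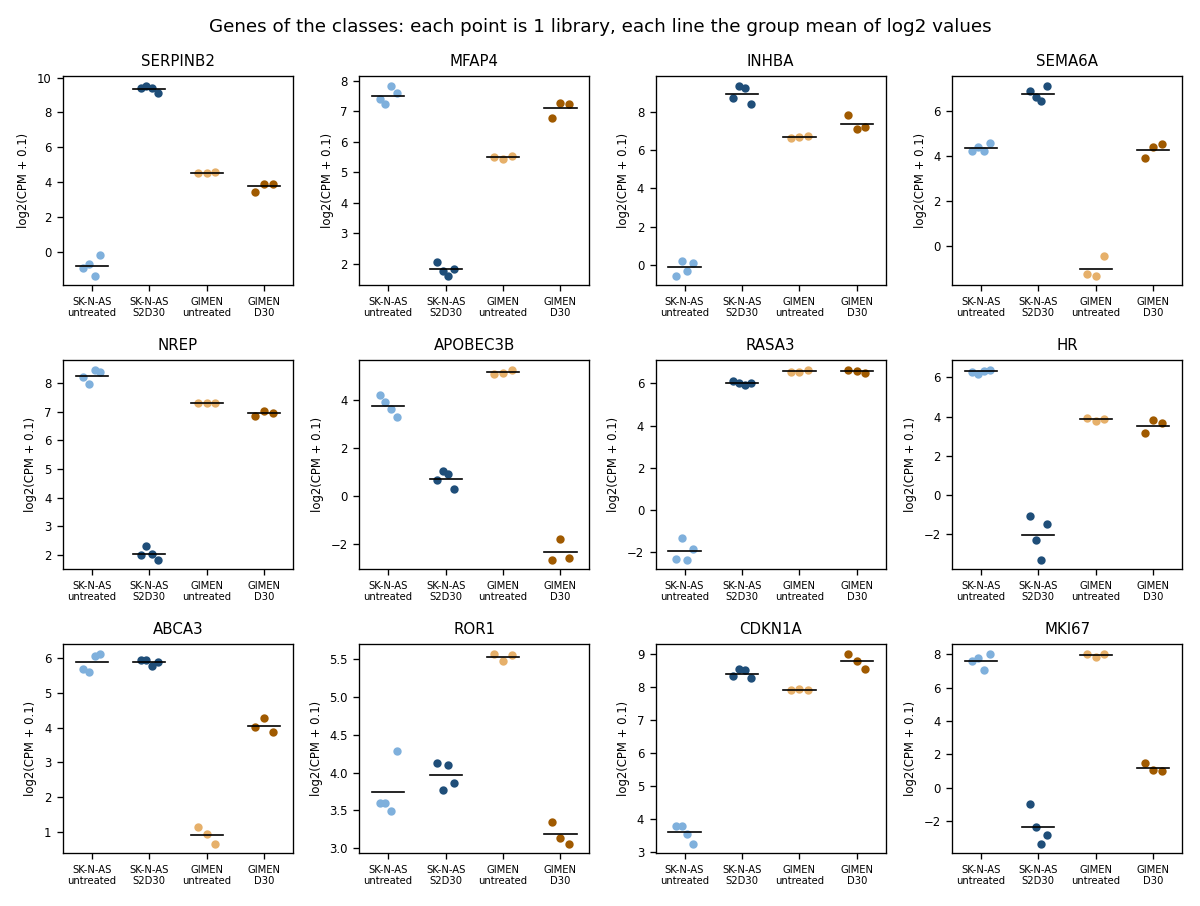
Level in each library as log2(CPM + 0.1) (vertical axes) for the 4 groups (horizontal axes) of the leading gene of each class, with CDKN1A and MKI67; points are libraries and lines are means of the log2 values. NREP and HR drop in the SK-N-AS panels with little movement in GIMEN, whereas ABCA3 and ROR1 move in GIMEN and overlap between the SK-N-AS groups.

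Most mesenchymal genes had a lower change in GIMEN than in SK-N-AS. Of 25 members among 30 mesenchymal state genes, 22 (88%) had a called difference, 20 with the GIMEN change below that of SK-N-AS and 2 above, with a median change of 1.59 for SK-N-AS against -0.59 for GIMEN. In SK-N-AS 19 rose and 4 fell, while in GIMEN 8 rose and 13 fell. Opposite directions, up in SK-N-AS and down in GIMEN, were called for 8 members, while 7 rose and 4 fell in both lines. SNAI2, a repressor that drives the mesenchymal state, rose from 5.97, 5.17, 2.87 and 3.35 to 28.1, 31.9, 31 and 21.5 CPM in SK-N-AS and fell from 85.8, 86.0 and 93.0 to 9.52, 12.4 and 9.45 in GIMEN, a difference of -5.75 ± 0.28 (adjusted p = 1.07e-10). RUNX1, a transcription factor, rose from 5.34, 4.18, 3.4 and 3.32 to 81.0, 83.9, 77.5 and 87.1 CPM and fell from 102, 98.2 and 96.0 to 74.8, 54.6 and 57.5, a difference of -4.99 ± 0.20. PRRX1, a homeobox factor of the mesenchymal core, went from 28.3, 23.0, 23.7 and 25.4 to 72.3, 83.4, 77.8 and 68.7 CPM and from 183, 173 and 185 to 58.2, 139 and 131, a difference of -2.31 ± 0.28 (adjusted p = 3.96e-06). At 30 days the levels of RUNX1 and PRRX1 in the 2 lines lay closer than before treatment. THY1, a surface glycoprotein, went against the list: it fell in both lines, from 102, 88.6, 81.0 and 56.6 to 0.793, 0.725, 1.06 and 0.663 CPM and from 49.1, 55.1 and 54.5 to 3.02, 2.9 and 2.84, with a difference of 2.47 ± 0.30. ZEB1, an E-box repressor, rose by 0.67 in GIMEN. Its difference between the lines was 0.94 ± 0.21, and 0.59 without untreated SK-N-AS replicates 3 and 4.

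The adrenergic list was less fully expressed in both lines, with 10 of its 25 genes as members. Of these, 8 (80%) had a called difference, all with the GIMEN change above that of SK-N-AS, with a median change of -2.0 for SK-N-AS against -0.03 for GIMEN. In SK-N-AS 9 fell, while in GIMEN 2 rose and 4 fell. GATA3, a transcription factor of sympathetic neurons, fell from 127, 122, 146 and 126 to 28.2, 29.0, 27.4 and 27.6 CPM in SK-N-AS, whereas GIMEN held 63.6, 57.2 and 60.7 CPM untreated and 66.6, 73.3 and 60.9 at D30, a difference of 2.36 ± 0.12 (adjusted p = 1.46e-10). CHGB, a granin of secretory granules, fell from 96.4, 108, 218 and 241 to 44.9, 56.6, 50.2 and 43.2 CPM in SK-N-AS and rose from 21.7, 22.2 and 21.2 to 107, 166 and 171 in GIMEN, a difference of 4.54 ± 0.39 (adjusted p = 6.57e-08). The untreated SK-N-AS libraries themselves split for CHGB, with replicates 3 and 4 above replicates 1 and 2. The same libraries split the other way for other genes, with replicates 1 and 2 the higher. These included LIF, BHLHE40, RBM3 and SNAI2 above and CYR61, AXL, FOSL1, VGF and SREBF1 below. Without replicates 1 and 2 the difference was 5.01 for CHGB and -6.23 for SNAI2, and without replicates 3 and 4 it was 3.82 and -5.41. In bulk RNA, fewer cells of a state and less RNA per cell cannot be told apart, here and in each result below.

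Neuronal structure and secretion genes split by gene. Of 15 neuronal cytoskeleton and growth cone members, 12 (80%) had a called difference, 8 above and 4 below, and 13 fell in SK-N-AS and 12 in GIMEN. TUBB3, neuronal beta-tubulin, fell in both lines, from 197, 162, 252 and 189.6 to 39.8, 58.1, 51.6 and 38.7 CPM and from 496, 545 and 533 to 195, 146 and 135, with no called difference (0.36 ± 0.23, adjusted p = 0.201). TUBA1A, a neuronal alpha-tubulin, fell by 3.24 in SK-N-AS and by 1.22 in GIMEN, a difference of 2.02 ± 0.19, and TUBB2B, another tubulin, differed by 1.86 ± 0.23. BASP1, a growth cone protein, rose by 0.95 in SK-N-AS and fell by 1.61 in GIMEN, while MARCKS, which tethers actin to membranes, fell by 0.39 and 1.82. Tubulin genes are near-identical copies, so their reads may be split between genes. STMN2 was not a member, since it did not pass the filter in both lines.

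Of 17 synaptic and secretory vesicle members, 14 (82.4%) had a called difference, 8 above and 6 below, and the list's median difference of 0.14 changed sign when single libraries were left out. VGF, a secreted neuropeptide precursor, rose in SK-N-AS from 278, 261, 187 and 127 to 34990.0, 36927, 38091 and 33864 CPM and in GIMEN from 241, 249 and 253 to 2942, 2415 and 2322. The untreated levels of VGF overlapped between the lines and the treated ones did not, with changes of 7.40 and 3.37 and a difference of -4.03 ± 0.30 (adjusted p = 1.13e-08). SCG2, another granin, fell from 349.8, 287, 379 and 312 to 89.9, 105, 97.4 and 84.2 CPM in SK-N-AS and rose from 269, 256 and 264 to 1090.0, 1025 and 1087 in GIMEN, a difference of 3.84 ± 0.14 (adjusted p = 4.35e-12). STX1A, a plasma membrane SNARE of exocytosis, rose by 1.87 in SK-N-AS with a difference of -1.99 ± 0.15, and SYT1, the calcium sensor of release, differed by 0.70 ± 0.16.

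Cell cycle genes fell in both lines. All 37 mitosis members fell in both, with medians of -6.03 in SK-N-AS and -6.07 in GIMEN, and 17 (45.9%, below the share of all members) had a called difference, 9 above and 8 below. MKI67, the proliferation marker Ki-67, fell from 190.4, 213, 133 and 257 to 0.417, 0.0966, 0 and 0.0414 CPM in SK-N-AS and from 258, 231 and 262 to 2.74, 1.98 and 1.95 in GIMEN. D30 libraries thus kept a low level that all 4 S2D30 libraries were below, with a difference of 3.60 ± 0.60 (adjusted p = 1.00e-04). The S2D30 levels were near the detection floor, most so outside replicate 1. Leaving out 1 library at a time gave an MKI67 difference of 3.19 to 5.17. TOP2A, the topoisomerase of dividing cells, fell by 8.92 and 5.92, a difference of 3.0 ± 0.25. CENPA, the centromeric histone, differed the other way by -1.47 ± 0.40, and KIF23, a kinesin of cytokinesis, by -1.25 ± 0.20. All 31 DNA replication members also fell in both lines, with medians of -2.54 and -3.42, although the median difference was only -0.30. Of these members, 18 (58.1%) had a called difference, 4 above and 14 below. GINS2 and ORC1, parts of the replication helicase and of the origin recognition complex, differed by -1.40 ± 0.35 and -1.36 ± 0.20. The DNA polymerase subunits POLE2 and POLA2 differed by 0.93 ± 0.32 (adjusted p = 0.0215, and 0.0519 without S2D30 replicate 1 or 0.0744 without D30 replicate 1) and 0.78 ± 0.15.

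Among inhibitors of the cycle, CDKN1A and CDKN2B rose more in SK-N-AS. CDKN1A, the p21 inhibitor of cyclin-dependent kinases, rose from 13.7, 13.6, 11.6 and 9.44 to 318, 370.3, 363 and 307 CPM in SK-N-AS and from 237, 244 and 238 to 515, 439 and 372 in GIMEN. The levels of the lines were closer at 30 days than before, without overlap, and the difference in change was -3.93 ± 0.18 (adjusted p = 6.04e-11). CDKN2B, the p15 inhibitor, rose from 4.84, 4.18, 2.01 and 2.03 to 132, 128, 116 and 137 CPM and from 74.7, 72.0 and 72.4 to 359, 378 and 400.4, a difference of -2.89 ± 0.27. CCND1, cyclin D1, rose by 2.02 and 0.32. CDKN1B, the p27 inhibitor, fell by 0.72 in SK-N-AS and rose by 1.06 in GIMEN, a difference of 1.78 ± 0.11, and CDK6 differed by 1.80 ± 0.25 from falls in both. The list of inhibitors of cyclin-dependent kinases and RB family genes also holds CCND1 and CDK6, so its counts do not describe inhibitors alone. Of its 15 members, 12 (80%) had a called difference, 5 above and 7 below. The median difference was -0.25, although the median change was lower in SK-N-AS (-0.72) than in GIMEN (-0.54). That median difference was -0.158 without untreated SK-N-AS replicate 4, -0.164 without D30 replicate 2 and -0.379 without D30 replicate 3.

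Among 25 p53 target members, 20 (80%) had a called difference, 5 above and 15 below, with a median difference of -0.64 although the median changes of the lines, -0.09 and -0.14, were nearly equal. GDF15, a stress-induced cytokine, rose by 7.05 in SK-N-AS and by 4.67 in GIMEN, a difference of -2.37 ± 0.29. TP53I3, a quinone oxidoreductase, fell by 4.10 and 1.08, a difference of 3.03 ± 0.35. In SK-N-AS 10 members of the list rose and 12 fell, and in GIMEN 7 rose and 11 fell, so that the list did not move as one in either line.

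Chemokines and cytokines had the lowest median difference of the 31 lists, -2.70. Of 33 chemokine and cytokine genes, 12 were members, and 10 (83.3%) had a called difference, 9 below and 1 above, with median changes of 3.65 in SK-N-AS and 0.57 in GIMEN. IL11, a cytokine of the interleukin-6 family, rose from 3.82, 4.43, 4.93 and 5.03 to 130.5, 84.7, 87.9 and 155 CPM in SK-N-AS and from 25.8, 26.0 and 22.8 to 69.9, 97.1 and 103 in GIMEN, a difference of -2.81 ± 0.28 (adjusted p = 4.08e-07). CSF1, the macrophage growth factor, rose by 2.04 and 2.61, a difference of 0.56 ± 0.19 (adjusted p = 0.0225, and 0.0888 without D30 replicate 1, 0.0578 and 0.0593 without untreated GIMEN replicate 2 or 3). The neutrophil chemokine CXCL8 and the chemokine CCL20, named after their values were seen, stayed under 10 CPM in GIMEN. Untreated levels of CXCL8 were near the detection floor in both lines. CXCL8 went from 0.456, 0.215, 0.0957 and 0.206 to 1684, 1784, 1895 and 1589 CPM in SK-N-AS and from 0, 0.394 and 0.114 to 5.93, 5.13 and 6.81 in GIMEN, a difference of -7.58 ± 1.08. CCL20 reached 817, 803, 897 and 734 CPM in S2D30 and 1.14, 0.68 and 1.58 at D30, from at most 3 counts in each untreated GIMEN library. With that group set at 3 counts per library, the CCL20 fold was at least 7.16 in GIMEN.

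The feedback genes of NF-kappa-B, the factor that drives many cytokine genes, rose in SK-N-AS in all 19 members and in GIMEN in 11, with 2 falls there. A difference was called for 16 (84.2%), 14 below and 2 above, and the medians were 1.89 and 0.79. TRAF1, an adaptor of tumour necrosis factor receptors, rose from 1.32, 2.93, 3.06 and 2.68 to 46.3, 46.8, 45.8 and 43.3 CPM in SK-N-AS and fell from 11.2, 10.4 and 13.1 to 5.87, 5.31 and 5.67 in GIMEN, a difference of -5.27 ± 0.27 (adjusted p = 1.67e-10). NFKBIZ, an atypical inhibitor of the I-kappa-B family, rose by 2.58 in SK-N-AS with a GIMEN change of 0.09, a difference of -2.49 ± 0.37. NFKBIA, the inhibitor that retains NF-kappa-B in the cytoplasm, went the other way: it rose from 66.7, 53.2, 65.0 and 45.1 to 174, 162, 171 and 161 CPM in SK-N-AS and from 22.7, 21.5 and 21.7 to 93.0, 206 and 199 in GIMEN, a difference of 1.38 ± 0.28 (adjusted p = 6.97e-04). TNFAIP3, the A20 brake on the pathway, is named after its values were seen and stayed under 10 CPM in GIMEN. It rose from 0.43, 0.904, 0.431 and 0.382 to 34.2, 36.3, 31.2 and 32.4 CPM in SK-N-AS and stood at 0.827, 0.788 and 1.49 and 1.42, 2.1 and 1.51 in GIMEN, a difference of -5.29 ± 0.40.

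Promoter sequence was searched for the list, whose genes were chosen as feedback genes of NF-kappa-B. A raised share of a pathway's motif can follow from such a choice, here and for the lists below. The relation of the motifs to the changes was not tested. RefSeq promoters of build GRCh38.p14, from 250 bases before to 50 after the gene start, matched 17 of the 19 members. The letters GGANTTTCC, on either strand, occurred in 6 of these 17 (35.3%) and in 1.64% of 27305 promoters of the same length. The 6 were NFKB1, REL, NFKBIA, NFKBIZ, TNFAIP3 and ICAM1. The promoters of TNFAIP3 and NFKBIA are shown because the differences of these genes between the lines had opposite signs and both held a match. Capitals mark the match, with 1 in TNFAIP3 (chr6:137867009-137867308, plus strand) and 2 in NFKBIA (chr14:35404700-35404999, minus strand). A match describes letters and not a bound site.
TNFAIP3: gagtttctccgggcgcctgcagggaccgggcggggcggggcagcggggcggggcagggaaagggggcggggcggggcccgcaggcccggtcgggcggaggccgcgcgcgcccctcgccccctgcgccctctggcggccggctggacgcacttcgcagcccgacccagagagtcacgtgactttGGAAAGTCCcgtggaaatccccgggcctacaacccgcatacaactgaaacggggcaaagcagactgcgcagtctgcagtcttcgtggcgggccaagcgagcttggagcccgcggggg
NFKBIA: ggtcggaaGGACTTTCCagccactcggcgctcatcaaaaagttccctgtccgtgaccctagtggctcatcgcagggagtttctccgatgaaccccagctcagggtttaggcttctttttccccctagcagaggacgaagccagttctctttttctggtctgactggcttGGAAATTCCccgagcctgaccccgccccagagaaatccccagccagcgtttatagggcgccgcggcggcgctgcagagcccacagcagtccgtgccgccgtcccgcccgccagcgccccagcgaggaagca

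AP-1 subunits, dimeric factors that respond to growth factor and stress kinases, rose in most members of both lines. Of 10 members, 9 rose in SK-N-AS and 8 in GIMEN, with medians of 3.10 and 0.82, and 9 (90%) had a called difference, 8 below and 1 above. FOSL1 rose from 18.2, 17.8, 9.28 and 7.77 to 107, 108, 114 and 113 CPM in SK-N-AS and fell from 137, 141 and 144 to 45.2, 41.1 and 28.2 in GIMEN, a difference of -4.93 ± 0.33 (adjusted p = 3.55e-09). FOSL2 differed by -3.91 ± 0.13, also with a fall in GIMEN, and JUND by 0.92 ± 0.18 with a rise there. The AP-1 letters TGACTCA occurred in 1 of 8 promoters with an entry, that of FOSL2, against 4.92% of all promoters.

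Outputs of the MAP kinase pathway rose in 15 of 21 members in each line. A difference was called for 17 (81%), 7 above and 10 below, with a median of -0.20 that was -0.687 without untreated SK-N-AS replicates 1 and 2, -0.375 without replicate 1 alone and -0.131 without replicate 3. EGR1, an immediate early factor, rose by 5.49 and 2.65, a difference of -2.84 ± 0.26, and EGR3 rose by 2.11 in SK-N-AS and fell by 0.94 in GIMEN. ETV1, an ETS factor, fell from 99.2, 95.7, 137 and 181 to 49.5, 51.2, 52.6 and 45.9 CPM in SK-N-AS and rose from 108, 104 and 103 to 208, 248 and 239.7 in GIMEN, a difference of 2.51 ± 0.23 (adjusted p = 1.88e-07). SPRY4, a feedback inhibitor of receptor tyrosine kinases, rose from 54.7, 53.4 and 49.6 to 231, 247 and 246 CPM in GIMEN and from 101, 105, 129 and 149.6 to 156, 143, 143 and 165 in SK-N-AS, where the libraries overlapped, a difference of 1.87 ± 0.16.

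Feedback genes of FOXO and PI3K, which respond when growth factor signalling falls, had a called difference in 17 of 21 members (81%), 12 above and 5 below, with medians of 0.56 and 0.89. IRS1, the insulin receptor substrate, rose from 7.54, 7.62, 6.51 and 10.2 to 73.3, 63.7, 50.6 and 77.2 CPM in SK-N-AS and fell from 293, 281 and 298 to 130.0, 133 and 118 in GIMEN, a difference of -4.24 ± 0.20 (adjusted p = 7.28e-11). CITED2, a transcriptional co-regulator, differed by -1.87 ± 0.19 from rises in both. FBXO32, a ubiquitin ligase of atrophy, rose by 2.87 and 4.45, and KLF9, a Krüppel-like factor, by 0.56 and 2.13, differences of 1.58 ± 0.21 and 1.57 ± 0.14. RNA of the kinases that PP121 inhibits showed no common direction: 10 of 14 members (71.4%) had a called difference, 5 above and 5 below, with a median difference of 0.05 and median changes of -0.02 for SK-N-AS and -0.30 for GIMEN. The tyrosine kinases ABL1 and ABL2 differed by -1.29 ± 0.11 and -1.88 ± 0.23, FYN by 1.67 ± 0.17, and PIK3CA, the catalytic PI3K subunit, by 0.55 ± 0.16, which was 0.341 without untreated SK-N-AS replicates 3 and 4.

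The sodium pump is the target of bufalin. ATP1B1, a beta subunit, fell from 70.9, 55.4, 75.7 and 62.1 to 42.1, 36.1, 34.0 and 46.8 CPM in SK-N-AS at 100 nM bufalin and rose from 91.5, 87.8 and 95.5 to 237, 336 and 395 in GIMEN at 10 nM, a difference of 2.55 ± 0.22 (adjusted p = 6.38e-08). FXYD5, a regulatory subunit, rose by 3.01 in SK-N-AS with a GIMEN change of 0.10, a difference of -2.92 ± 0.27. Of 12 pump genes 6 were members, and 5 (83.3%) had a called difference, 3 above and 2 below. The median difference was 0.83, although the median change was larger in SK-N-AS (1.07) than in GIMEN (0.63).

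Cholesterol synthesis genes mostly had a lower change in GIMEN than in SK-N-AS. Of 23 members, 20 (87%) had a called difference, 19 with the GIMEN change below and 1 above, and 11 rose in SK-N-AS while falling in GIMEN. In all, 14 rose and 4 fell in SK-N-AS, and 3 rose and 18 fell in GIMEN. HMGCS1, an early enzyme of the pathway, rose from 70.2, 66.5, 56.2 and 55.8 to 138, 129, 138 and 131 CPM and fell from 32.9, 31.3 and 37.9 to 17.3, 17.3 and 18.8, a difference of -2.04 ± 0.14 (adjusted p = 4.05e-09). INSIG1, the sterol-responsive brake on the pathway, rose from 44.2, 38.7, 32.2 and 30.1 to 119.9, 103, 107 and 129 CPM and fell from 26.9, 26.0 and 26.8 to 19.3, 17.2 and 18.2, a difference of -2.20 ± 0.17. Neither HMGCS1 nor INSIG1 had overlapping treated and untreated libraries in either line. TM7SF2, a sterol reductase, was the exception on the list, falling from 52.5, 52.7, 53.1 and 48.5 to 7.39, 8.55, 9.61 and 8.25 CPM in SK-N-AS and rising from 13.0, 13.1 and 14.6 to 19.1, 25.6 and 22.6 in GIMEN, a difference of 3.34 ± 0.16. Sterol element letters CACCCCAC occurred in 1 of 18 promoters with an entry (5.56%), that of SREBF2, and in 2.72% of all promoters.

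Fatty acid synthesis genes with a called difference lay mostly higher in the GIMEN response. Of 11 members, 8 (72.7%) had a called difference, 7 above and 1 below, with a median of 0.53. SREBF1, the main activator of the pathway, rose by 0.89 in GIMEN with an SK-N-AS change of -0.20, a difference of 1.09 ± 0.19, and ACACA, acetyl-CoA carboxylase, fell by 1.49 and 0.66. FADS1, a desaturase, had the 1 difference below, -0.28 ± 0.11 (adjusted p = 0.0485), which no longer passed without untreated SK-N-AS replicate 2 or 3, any one S2D30 library, any one untreated GIMEN library, or D30 replicate 2 or 3, with adjusted p of 0.053 to 0.115.

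Glycolysis and hypoxia genes lay lower in the GIMEN response. Of 28 members, 20 (71.4%) had a called difference, all below, with medians of 0.39 in SK-N-AS and -0.53 in GIMEN. In SK-N-AS 15 rose and 5 fell, and in GIMEN 3 rose and 18 fell. VEGFA, the angiogenic growth factor, rose from 45.9, 56.1, 50.3 and 61.4 to 1028, 1116, 1059.8 and 969 CPM in SK-N-AS, while GIMEN held 91.4, 98.7 and 98.5 untreated and 113, 104 and 102 at D30 (adjusted p = 0.248), a difference of -4.14 ± 0.14 (adjusted p = 1.61e-12). SLC2A3, a glucose transporter, rose from 7.42, 6.59, 6.12 and 5.59 to 151, 172, 176 and 158 CPM and from 59.7, 58.3 and 53.5 to 149.6, 85.3 and 104, a difference of -3.69 ± 0.21. The hypoxia core letters ACGTGC occurred in 7 of 24 promoters with an entry (29.2%), those of HK2, ALDOC, PGK1, ENO2, LDHA, BNIP3 and ANKRD37, and in 6.87% of all promoters. Respiratory chain genes differed little by comparison: of 34 members, 27 fell in SK-N-AS and 23 in GIMEN, none rose, and 7 (20.6%) had a called difference, 4 above and 3 below. The widest differences were 0.85 ± 0.18 for the complex I subunit NDUFB10 and -0.78 ± 0.23 for the complex IV subunit COX7B. For SDHD of complex II it was -0.58 ± 0.15, and for ATP5C1 of the ATP synthase 0.58 ± 0.17.

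Most lysosome and autophagy genes rose in each line, with a lower change in GIMEN for most. Of 27 members, 21 rose in SK-N-AS and none fell, while 19 rose and 2 fell in GIMEN, with medians of 1.71 and 0.61. A difference was called for 22 (81.5%), 20 below and 2 above. CTSD, the protease cathepsin D, named after its values were seen to show its promoter, rose from 268, 236, 244 and 168 to 1947, 1995, 1996 and 1918 CPM in SK-N-AS and from 284, 282 and 275 to 729, 724 and 609 in GIMEN, a difference of -1.80 ± 0.18 (adjusted p = 3.34e-07). LAMP1, a membrane protein of lysosomes named likewise, rose from 239, 208, 219 and 169 to 461, 443, 441 and 467 CPM and from 323, 336 and 334 to 419, 438 and 366, a difference of -0.82 ± 0.14. GABARAPL1, an autophagosome protein, rose from 2.53, 2.32, 2.68 and 1.74 to 90.0, 88.9, 93.7 and 86.7 CPM and from 13.2, 12.2 and 14.3 to 119, 122 and 117, a difference of -2.11 ± 0.15. NPC2, a carrier of lysosomal cholesterol, rose from 121, 88.6, 86.2 and 51.2 to 461, 428, 482 and 455 CPM in SK-N-AS with GIMEN at 275, 281 and 267 and 318, 292 and 332, a difference of -2.20 ± 0.25. The autophagy kinase ULK1 and the glucosidase GAA differed upward, by 0.82 ± 0.16 and 0.47 ± 0.13, the latter 0.308 without untreated SK-N-AS replicates 3 and 4. CD68, listed among the leukocyte markers, rose by 3.14 and 1.59, a difference of -1.55 ± 0.38.

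Promoters of this list often held the core of the CLEAR element, the motif read by the lysosomal regulator TFEB. The letters CACGTGAC, on either strand, occurred in 6 of 18 members with an entry (33.3%) and in 2.53% of all promoters. That share can follow from the choice of lysosome genes for the list. The 6 were LAMP1, CTSA, CTSD, GAA, ATP6V0D1 and MCOLN1, all named for this match, and their differences ran in both directions, from -1.80 for CTSD and -1.33 for CTSA to 0.47 for GAA, with -0.55 for ATP6V0D1 and 0.13 for MCOLN1 (adjusted p = 0.517). The promoters of CTSD (chr11:1763878-1764177, minus strand) and LAMP1 (chr13:113296989-113297288, plus strand) are shown because both genes rose in both lines and they hold 1 and 6 matches, in capitals.
CTSD: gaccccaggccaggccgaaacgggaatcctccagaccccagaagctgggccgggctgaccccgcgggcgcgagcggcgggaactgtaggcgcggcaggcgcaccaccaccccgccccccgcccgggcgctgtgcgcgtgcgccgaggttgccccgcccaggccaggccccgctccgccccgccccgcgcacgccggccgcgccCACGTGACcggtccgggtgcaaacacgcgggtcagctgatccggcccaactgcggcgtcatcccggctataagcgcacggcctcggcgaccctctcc
LAMP1: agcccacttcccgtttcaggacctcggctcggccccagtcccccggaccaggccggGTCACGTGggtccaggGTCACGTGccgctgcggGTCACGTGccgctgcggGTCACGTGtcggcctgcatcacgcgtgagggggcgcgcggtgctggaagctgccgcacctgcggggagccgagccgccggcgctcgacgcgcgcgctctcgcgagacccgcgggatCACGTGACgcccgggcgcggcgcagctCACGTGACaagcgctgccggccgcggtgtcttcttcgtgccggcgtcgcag

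Most contractile genes and targets of YAP, the factor that reads cell shape and tension, had a lower change in GIMEN than in SK-N-AS. Of 24 members, 19 (79.2%) had a called difference, 17 below and 2 above, with medians of 0.21 and -1.21. In SK-N-AS 12 rose and 10 fell, and in GIMEN 1 rose and 20 fell. AXL, a receptor tyrosine kinase, rose from 18.2, 17.1, 9.33 and 8.41 to 114, 139, 131 and 104 CPM in SK-N-AS and fell from 557, 580.0 and 591 to 117, 125 and 112 in GIMEN, ending at overlapping levels, with a difference of -5.48 ± 0.29 (adjusted p = 2.74e-10). CYR61, now CCN1, a matricellular protein, went from 41.1, 36.9, 13.0 and 8.83 to 60.0, 71.6, 70.8 and 65.0 CPM in SK-N-AS and from 240.4, 258 and 286 to 38.9, 44.9 and 40.5 in GIMEN. Its difference was -4.07 ± 0.50, and -5.28 without untreated SK-N-AS replicates 1 and 2 or -3.45 without replicates 3 and 4. TAGLN, an actin-binding protein of smooth muscle named after its values were seen, fell from 160.3, 165 and 179 to 3.93, 3.21 and 2.65 CPM in GIMEN beside 3.01, 4.43, 2.63 and 3.21 and 4.55, 4.25, 4.21 and 4.27 in SK-N-AS, a difference of -6.07 ± 0.21. TPM2, a tropomyosin, differed by 0.99 ± 0.19 in the opposite direction.

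Signals of the TGF-beta family had a called difference in 21 of 24 members (87.5%), 16 below and 5 above, with medians of 1.07 for SK-N-AS and -0.45 for GIMEN. The median difference was -1.92, or -1.61 with genes at the detection floor set at their bounds. FST, follistatin, the activin antagonist, rose from at most 3 counts in each untreated SK-N-AS library to 29.3, 21.6, 24.4 and 22.7 CPM, at least 224-fold, and in GIMEN from 129.8, 129 and 141 to 122, 257 and 298 CPM, where the libraries overlapped. Its difference was -7.46 ± 0.50 as fitted and -7.05 with untreated SK-N-AS set at 3 counts per library. INHBA, whose product follistatin binds, is described above. LTBP1, which stores TGF-beta in the matrix, fell by 1.79 in SK-N-AS with a difference of 1.66 ± 0.19, and TGFBR3, a co-receptor, rose by 0.46 and 2.07, a difference of 1.61 ± 0.20.

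Matrix genes split. Of 17 collagen members, 15 (88.2%) had a called difference, 6 above and 9 below. COL6A2, a beaded-filament collagen chain, rose by 1.39 in SK-N-AS and fell by 0.71 in GIMEN, a difference of -2.10 ± 0.15. COL3A1, a fibrillar chain, fell by 4.31 and 3.26, and COL18A1, the source of endostatin, differed by 0.62 ± 0.15. Among 30 matrix glycoprotein and integrin members, 25 (83.3%) had a called difference, 12 above and 13 below, with a median difference of -0.28, although the median changes were -0.08 in SK-N-AS and 0.12 in GIMEN. That median was -0.43 without untreated GIMEN replicate 2. THBS2, thrombospondin 2, rose by 6.10 and 1.38, a difference of -4.72 ± 0.38, and ITGB3, the integrin beta-3 subunit, by 5.18 and 0.57, a difference of -4.61 ± 0.32. NID2, nidogen 2 of basement membranes, fell by 2.14 in SK-N-AS and differed by 2.10 ± 0.15.

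Stress programmes were described by 4 lists. Of 25 integrated stress response members, 20 (80%) had a called difference, 9 above and 11 below. SLC7A11, the cystine transporter, rose from 7.42, 8.61, 3.83 and 5.0 to 77.0, 55.0, 55.5 and 83.0 CPM in SK-N-AS and fell from 34.9, 33.3 and 31.2 to 4.9, 6.43 and 6.68 in GIMEN, a difference of -5.91 ± 0.32 (adjusted p = 3.25e-10). PPP1R15A, which restarts translation, rose by 5.11 and 1.59. PSAT1, of serine synthesis, fell by 4.36 and 1.22, a difference of 3.14 ± 0.17, and CEBPG, a partner of ATF4, differed by 0.92 ± 0.14. Of 18 unfolded protein response members, 14 (77.8%) had a called difference, 12 below and 2 above. The ER factors EDEM1 and HSPA5 differed by -2.01 ± 0.14 and -1.15 ± 0.14, against 0.77 ± 0.15 for DNAJB9 and 0.49 ± 0.11 for SYVN1. The list named cytosolic heat shock had 10 of 17 members called (58.8%), 4 above and 6 below. Of its members, HSPE1, which acts in mitochondria, and BAG3 differed by -1.23 ± 0.19 and -0.97 ± 0.12. DNAJA1 and HSPH1 differed by 1.17 ± 0.15 and 0.92 ± 0.21. NRF2 targets and ferritin had 14 of 20 called (70%), 7 above and 7 below. Heme oxygenase HMOX1 rose by 1.02 and fell by 1.20, and the iron store FTH1 rose by 1.90 in SK-N-AS with a difference of -1.71 ± 0.26. The drug exporter ABCC1 and the glutathione enzyme GCLC differed upward, by 1.5 ± 0.12 and 1.09 ± 0.15.

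Most antigen presentation genes rose in each line: of 14 MHC class I members, 12 rose in SK-N-AS and 11 in GIMEN, and 12 (85.7%) had a called difference, 10 below and 2 above. The peptide transporter TAP1 rose by 1.22 and 2.26, a difference of 1.04 ± 0.19, and the chaperone CALR differed by -1.05 ± 0.14. Interferon-stimulated genes had a called difference in 19 of 32 members (59.4%), 14 above and 5 below, with medians of -0.38 and 0.25. The RNA sensor DDX60 rose by 1.31 and fell by 0.93, a difference of -2.24 ± 0.17. The ADP-ribosyltransferases PARP9 and PARP14 differed upward, by 1.82 ± 0.18 and 1.15 ± 0.15. Cytosolic ribosomal protein genes had a low share of called differences, like the respiratory chain: 10 of 49 members (20.4%) had a called difference, 7 above and 3 below. RPS24 and RPL15 differed by 0.84 ± 0.22 and 0.84 ± 0.16, RPL38 by -0.67 ± 0.18, and RPL24 by -0.55 ± 0.21 (adjusted p = 0.0401, 0.0535 to 0.0958 without replicate 2 or 3 of any of the 4 groups).

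**Figure D4:**
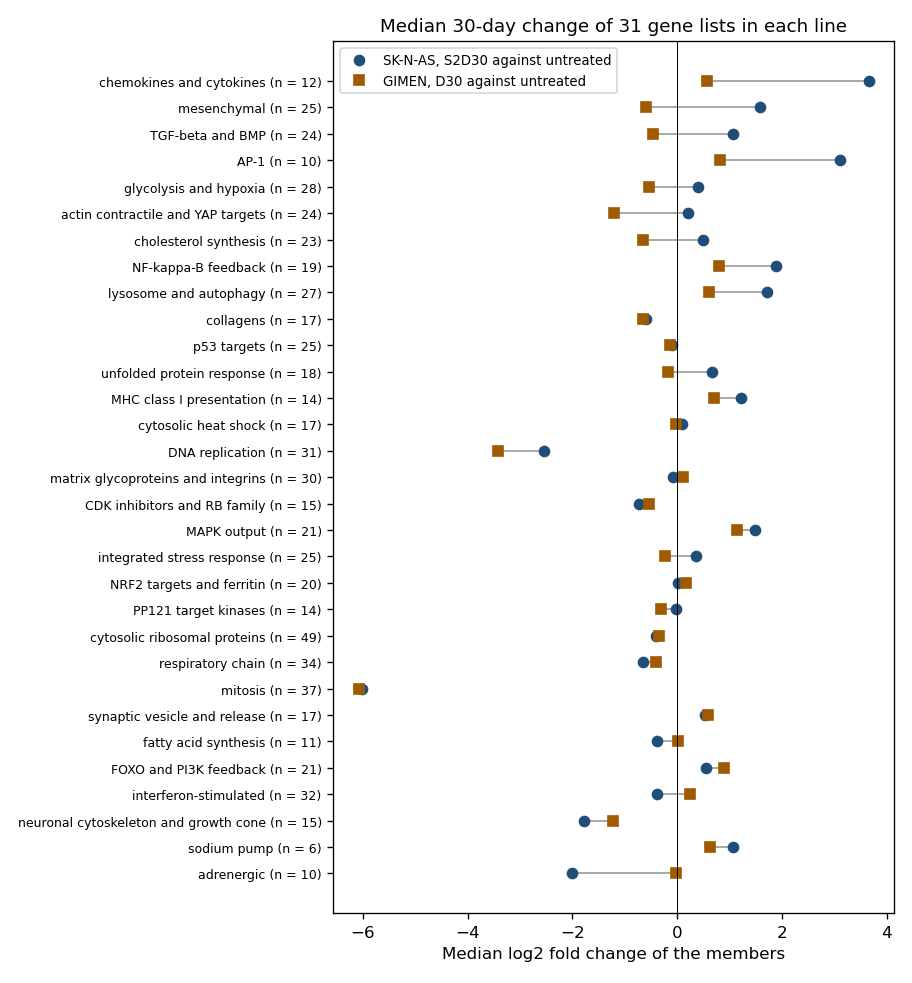
Median log2 fold change after 30 days (horizontal axis) of the members of 31 gene lists (vertical axis, ordered by median difference between the lines) in SK-N-AS (circles) and GIMEN (squares). Mitosis genes have medians of -6.03 and -6.07, while cholesterol synthesis, mesenchymal and glycolysis genes lie on opposite sides of 0.

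**Figure D5:**
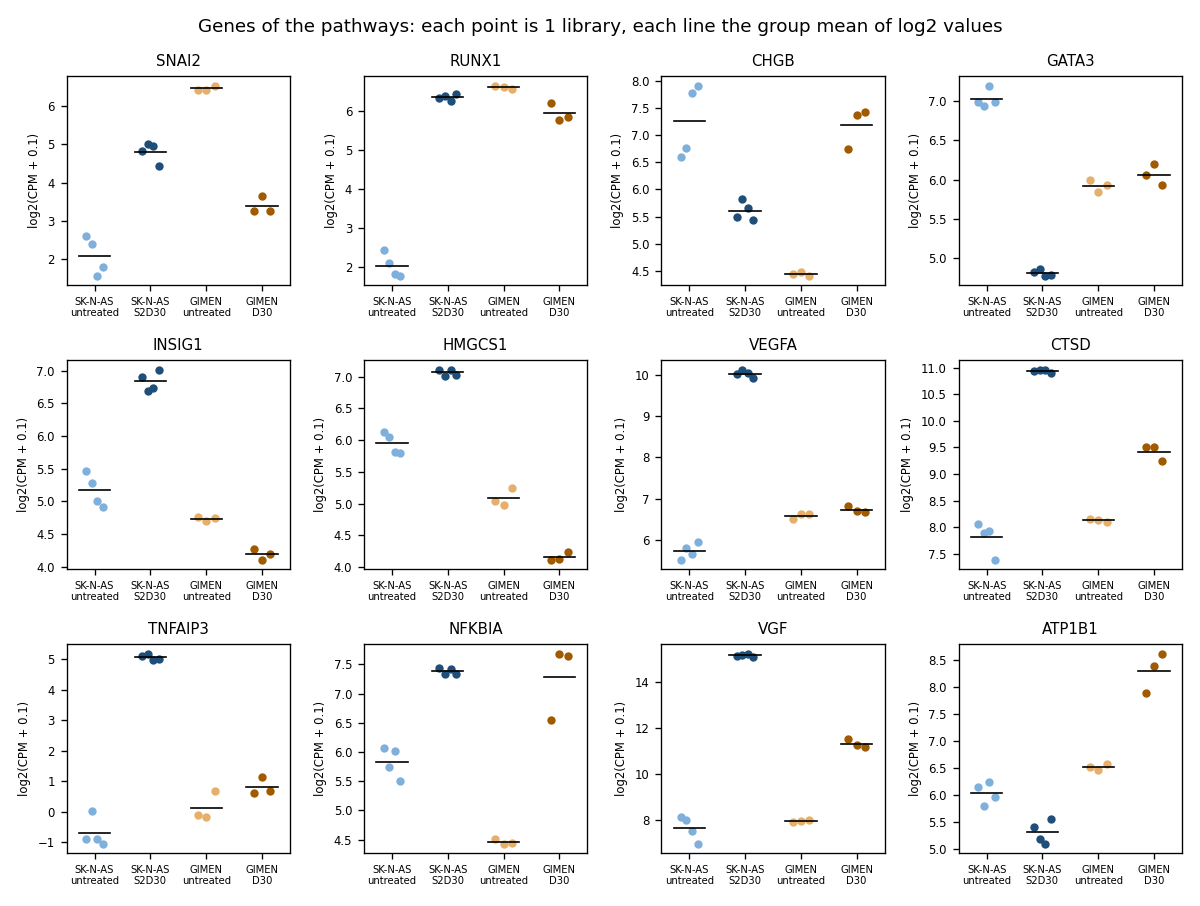
Level in each library as log2(CPM + 0.1) (vertical axes) for the 4 groups (horizontal axes) of 12 genes from the lists; points are libraries and lines are means of the log2 values. SNAI2, INSIG1 and HMGCS1 rise in SK-N-AS and fall in GIMEN, and CHGB and ATP1B1 do the reverse.

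The difference in change was set beside the difference in level, which uses the same libraries and is therefore a description. Of the 7222 members with a called difference, 3822 (52.92%) had closer levels in the 2 lines at 30 days than before treatment, against 52.1% of all members. The share was 50.9% of 3833 members with a called difference under 1 log2 unit, 53.4% of 2147 from 1 to 2, 56.5% of 971 from 2 to 4 and 64.6% of 271 of at least 4. By class it ranged from 41% of the members that fell more in SK-N-AS to 63.8% of those that rose in SK-N-AS and fell in GIMEN. SERPINB2, PLK2 and HR are examples whose levels moved apart or crossed, and SPOCK1, RASA3 and CDKN1A examples whose levels drew nearer.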

How the data were processed

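The authors deposited raw read counts per gene for each library. The labels' protocols give column extraction of total RNA with DNase and paired-end sequencing, while the aligner, genome build, counter and strand setting are not given in the sources used here, so overlapping and antisense genes cannot be told apart. Groups came from the labels, and 14 libraries entered 1 edgeR 4.0.16 quasi-likelihood model (R 4.3.3, limma 3.58.1) with a mean per group and TMM scaling. The line difference, each line's change and their Benjamini-Hochberg adjusted p-values were computed over 16246 genes that passed filterByExpr (minimum count 10, minimum total 15). Members also passed that filter within each line alone. Levels are TMM-scaled CPM, and a group was at the detection floor where each library held at most 3 counts. The fit was also run on simulated counts with known differences added to some genes. Each gene otherwise had the same mean share in all groups, and all genes had the same spread. These counts lacked the line and treatment effects of the data, so the run does not show how the fit performs on them.

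Named genes were the 3 widest differences in each of 10 classes and the 2 widest on either side of each list, with a mean of at least 10 CPM in a group of each line. For the classes, treated and untreated libraries could not overlap where a change was called. To these came CDKN1A, MKI67, PRRX1, FN1, HMGCS1, GATA3, TUBB3 and STMN2. The members, lists and rules were chosen with earlier results of these data known. Alternatives were DESeq2 1.42.0, other scaling factors and filters, a fold threshold, all 22 libraries of the series in 1 model, a replicate block, and leaving out libraries. Each line was also fitted alone. A few named genes are not reported here.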

Additional observations from a re-analysis of the deposited data

Results flagged for a closer look

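The direct test of the difference between the lines called 3605 members with the GIMEN change above that of SK-N-AS and 3617 below. Each class is given by its 3 widest log2 differences past the threshold in edgeR's quasi-likelihood test, among genes with a mean of at least 10 CPM in a group of each line and no overlap of treated and untreated libraries where a change was called. Genes outside that filter can differ by more. Among genes up in SK-N-AS and down in GIMEN they were -11.1 for SERPINB2, -10.6 for SPOCK1 and -8.46 for MYEOV. With the directions exchanged they were 7.66 for RP11-572P18.1, 7.35 for MFAP4 and 6.56 for ATP8A1. Genes up in both lines gave -8.54 for INHBA, -7.97 for IL1RAPL1 and -7.59 for LIF where SK-N-AS rose more, and 3.11 for SEMA6A, 2.30 for ABHD6 and 1.85 for BTN2A2 where GIMEN did. Genes down in both gave 5.91 for NREP, 4.51 for SCARA3 and 4.19 for FN1 where SK-N-AS fell more, and -5.27 for APOBEC3B, -3.10 for TMEM97 and -3.07 for PDE3A where GIMEN did. Changes called in SK-N-AS alone gave -8.58 for RASA3, -6.12 for BHLHE40, -5.99 for COL4A6, 8.40 for HR, 5.20 for MAB21L2 and 3.75 for PLK2. Changes called in GIMEN alone gave 3.20 for ABCA3, 3.18 for BMPR1B, 2.26 for KSR1, -2.54 for ROR1, -2.42 for IGF2 and -2.36 for RBM3.

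In 3 of 72 gene and group combinations checked for a sample far from the others, untreated SK-N-AS replicate 4 stood apart by Dixon's criterion, which chance meets in about 1 in 20 groups. It held 84.6 CPM of FN1, 57.5 CPM of PDE3A and 19.4 CPM of ROR1, each the highest of its group. All 3 differences between the lines stayed past the threshold without that library. Only the SK-N-AS groups were checked. In GIMEN, D30 replicate 1 lay away from replicates 2 and 3 for some named genes. It held 58.2 CPM of PRRX1 against 139 and 131, and 68.0 CPM of ITGB3 against 41.4 and 44.7. For others, such as ABCA3, it lay between them. Leaving out 1 library at a time gave a PRRX1 difference of -2.53 to -2.02.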

How the results depend on the processing

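No difference of the 141 named genes changed sign over 3243 values under the alternatives, and 3210 kept their side of the threshold. The 33 that lost the call belonged to FADS1, RPL24, CSF1 and POLE2. Requiring an absolute log2 value of at least 1 left 1778 members above and 1611 below. It left 1943 rises and 2239 falls in SK-N-AS, and 1413 and 1626 in GIMEN. By class it left 118 up in SK-N-AS and down in GIMEN, 135 the reverse, 185 and 34 both up with the larger rise in SK-N-AS or GIMEN, and 178 and 79 both down likewise. It gave 344 up and 287 down called in GIMEN alone, and 550 with neither line called. Leaving out untreated SK-N-AS replicates 3 and 4 together gave 1206 members up in both and more in SK-N-AS, and 54 with neither called. The other 412 of 429 count values stayed within 1.5 times. Leaving out 1 library at a time gave 3201 to 4047 members on either side. The most, 4022 above and 4047 below, came without untreated SK-N-AS replicate 4, the library flagged above.

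The fit with a replicate block gave 3546 above and 3673 below, and it ended the calls of POLE2 and FADS1. After each group's mean was subtracted per gene, same-numbered treated and untreated libraries of a line correlated at -0.0612 to 0.111. Differently numbered ones correlated at -0.188 to 0.138, so the numbers were not taken as pairs. The median difference was 0.000543, against -0.0134 with DESeq2 size factors and 0.0438 with upper-quartile factors. Of 736 list medians under alternatives, 53 moved by more than the spread and 23 changed sign, in lists whose median lay near 0 (mitosis, synaptic, NRF2, PP121 target kinases, respiratory chain, ribosomal). The synaptic median of 0.138 was -0.0825 without untreated GIMEN replicate 2 and -0.0458 without D30 replicate 3. The causes were not tested. Genes with a group at the detection floor, 124 members, have fitted differences that depth limits. So do genes with a group just above that floor, such as MYEOV, IL1RAPL1 and HR, which are not among the 124.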
